A study of Mus musculus with 13 samples.

Results

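The genes described here are 10 members of 2 calcium-linked protein families, the S100 proteins (S100a4, S100a6, S100a10, S100a11 and S100a13) and the annexins (Anxa1, Anxa2, Anxa4, Anxa5 and Anxa6). They were chosen by symbol, with earlier results of these data known. Each matched exactly 1 Ensembl gene, and all 10 of the 18649 genes in the deposited table passed the filter on low values. They were read in 13 RNA-seq libraries of sorted mouse splenic CD4 T cells. The PD1hi population (3 libraries) was sorted as CD4+PD1hiGFP(Foxp3)-, with much of the inhibitory receptor PD-1 on the surface and no reporter of the regulatory factor Foxp3. Regulatory T cells (Treg, 5 libraries) were CD4+PD-1-GFP(Foxp3)+, and conventional T cells (Tconv, 5 libraries) were CD4+PD-1-GFP(Foxp3)-. Cells of all 3 populations thus carried a GFP reporter of Foxp3 and no treatment is named in the labels, which give neither strain nor age. Experiments 3, 5 and 6 each supplied all 3 populations, and 4 of the Treg and Tconv libraries are marked as replicates within their experiment. Nothing in the labels ties these replicates to separate animals, so they were averaged within their experiment and population before the main fit. The p-values of that fit rest on the spread between the values of experiments 3, 5 and 6, which may be technical.

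S100 proteins are small EF-hand proteins that mostly work as dimers and, on binding calcium, expose a surface that holds a partner protein. Annexins are larger proteins whose repeated core binds acidic phospholipids of membranes in the presence of calcium. The families meet in fixed complexes, of which S100A10 with annexin A2 and S100A11 with annexin A1 are the best known. Several of these genes are known to be more abundant in antigen-experienced than in naive T cells.

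Against Tconv, PD1hi cells had higher S100a4, S100a6, S100a11, Anxa2 and Anxa4 and lower Anxa1 and Anxa6, while S100a10, S100a13 and Anxa5 did not pass the test. Against Treg, PD1hi cells had higher S100a6, S100a11 and Anxa2 and lower S100a10, Anxa1 and Anxa6. Treg had higher S100a4, S100a6, S100a10 and Anxa4 than Tconv, and lower Anxa1. S100a11 was 3.80-fold and Anxa2 3.84-fold higher in PD1hi than in Tconv, and Anxa1 was 6.85-fold lower.

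The depth of the libraries ran from 15971126 to 24216463 reads in genes. Values are scaled counts, that is reads divided by the authors' size factor of each library, and are not corrected for gene length. The sorted genes followed the labels: Pdcd1, which encodes PD-1, was at 33610 to 39710 in PD1hi libraries, 1715 to 2266 in Treg libraries and 900.5 to 1374 in Tconv libraries. Foxp3 had scaled counts of 67.7 to 129.4 in PD1hi libraries, 12900 to 18880 in Treg libraries and 231.6 to 331.8 in Tconv libraries, and Cd3e, a chain of the T cell receptor complex, was at 20920 or above in every library. The second Treg library of experiment 3 stood apart from its partner: chi-square per degree of freedom, which is near 1 for sampling noise alone, was 73.5 for that pair and 7.77 to 9.05 for the other 3 pairs. That second library also held the lowest Treg values of Foxp3 (12900) and Cd3e (20920). Its Cd4 was at 9908, against 17300 to 20390 in the other Treg libraries. Myeloid and neutrophil markers were higher in both Treg libraries of experiment 3: their 11 genes summed to 1988 and 1824 there, against 461.3 to 566.6 in the other Treg libraries, 328.4 to 664.1 in PD1hi libraries and 316.7 to 944.2 in Tconv libraries. Of these genes, 11 and 10 had a read in those 2 libraries, 5 to 11 in PD1hi libraries, 5 to 11 in the other Treg libraries and 7 to 11 in Tconv libraries, with S100a8, S100a9, Camp, Ngp and Cd14 at 0 in several libraries of experiments 5 and 6. Summed markers of B cells (8 genes) ran from 196 to 382.3 in PD1hi, 562 to 1013 in Treg and 92.4 to 204.6 in Tconv, and those of CD8 T and NK cells (5 genes) from 255.5 to 522.7, 329.2 to 545.4 and 1393 to 1522 in the same populations. Markers of erythroid cells and platelets (7 genes) summed to 103.5 or less in every library, and those of CD4 T cells (6 genes) to 91220 or more. The part of other cells in the results was not tested.

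The regions upstream of 5 of the genes are shown here as examples of members that were higher in PD1hi than in Tconv (S100a11, Anxa2, S100a4 and S100a6) and of the member that fell most (Anxa1). Anxa4, which was also higher, is not printed. Each is the 250 bases before the start in RefSeq on GRCm38.p6, read 5′ to 3′ on the strand of the gene. RefSeq windows were matched for 8 of the 10 genes. Capitals mark exact matches on either strand to a TATA box (TATAAA), a GC box (GGGCGG) or an AP-1 site (TGANTCA), and no matches overlapped.
S100a11 (chr3:93520246-93520495, plus strand): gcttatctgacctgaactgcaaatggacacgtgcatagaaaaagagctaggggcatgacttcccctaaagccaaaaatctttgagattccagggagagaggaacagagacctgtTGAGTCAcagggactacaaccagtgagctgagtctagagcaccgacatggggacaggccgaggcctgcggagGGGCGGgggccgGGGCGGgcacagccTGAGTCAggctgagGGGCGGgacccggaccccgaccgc
Anxa2 (chr9:69453433-69453682, plus strand): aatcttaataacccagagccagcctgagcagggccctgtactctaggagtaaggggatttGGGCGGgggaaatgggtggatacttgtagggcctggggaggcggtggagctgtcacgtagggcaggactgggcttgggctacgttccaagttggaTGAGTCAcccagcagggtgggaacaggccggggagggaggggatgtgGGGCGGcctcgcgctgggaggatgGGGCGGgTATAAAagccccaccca
S100a4 (chr3:90603520-90603769, plus strand): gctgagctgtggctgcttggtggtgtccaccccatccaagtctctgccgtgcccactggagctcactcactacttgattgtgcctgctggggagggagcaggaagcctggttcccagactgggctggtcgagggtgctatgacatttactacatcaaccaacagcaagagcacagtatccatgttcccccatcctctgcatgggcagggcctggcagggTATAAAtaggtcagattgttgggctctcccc
S100a6 (chr3:90612644-90612893, plus strand): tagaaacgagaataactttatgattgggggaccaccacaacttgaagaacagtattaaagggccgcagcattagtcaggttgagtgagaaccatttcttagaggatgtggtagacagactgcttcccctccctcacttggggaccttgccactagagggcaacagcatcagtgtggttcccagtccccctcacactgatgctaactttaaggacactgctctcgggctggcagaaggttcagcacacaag
Anxa1 (chr19:20390672-20390921, minus strand): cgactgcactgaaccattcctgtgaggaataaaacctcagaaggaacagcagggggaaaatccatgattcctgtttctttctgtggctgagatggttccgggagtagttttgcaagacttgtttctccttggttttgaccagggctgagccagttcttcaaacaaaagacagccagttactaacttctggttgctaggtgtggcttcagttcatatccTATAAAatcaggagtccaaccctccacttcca
S100a11 held 3 GC boxes and 2 AP-1 matches. Anxa2 held 3 GC boxes, 1 AP-1 match and 1 TATA box, which began 17 bases before the start. S100a4 and Anxa1 each held a TATA box, 31 and 32 bases before the start, and S100a6 held none of the 3 motifs. The windows of S100a13, Anxa4 and Anxa5 also held none. Among the 8 genes with a window, a GC box was found in 2, an AP-1 match in the same 2 and a TATA box in 3. Of all 32851 windows of this length in the RefSeq table, 32.7% held a GC box, 6.75% an AP-1 match and 12.4% a TATA box. A match describes the letters and does not show that a factor binds there.

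S100a11, whose product pairs with annexin A1, was measured at 6515, 5237 and 6411 scaled counts in the PD1hi libraries of experiments 3, 5 and 6. Treg libraries held 2477 and 2633 in experiment 3, 2007 in experiment 5 and 1908 and 1922 in experiment 6. Tconv libraries held 1649 in experiment 3, 1802 and 1721 in experiment 5 and 1345 and 1390 in experiment 6. Every PD1hi library lay above every Treg and Tconv library, and the Treg libraries lay above the Tconv libraries without overlap. The log2 fold change, from limma on log2(scaled count + 1), was 1.93 ± 0.16 (SE, n = 3 experiments) in PD1hi against Tconv, with a limma adjusted p of 4.21e-06. It was 1.49 ± 0.16 in PD1hi against Treg (limma adjusted p = 3.93e-05). In Treg against Tconv it was 0.44 ± 0.16 and did not pass (limma adjusted p = 0.0983). With all 13 libraries in limma's duplicateCorrelation fit the Treg difference did pass (adjusted p = 0.0254). A processed pseudogene, S100a11-ps on chromosome 12, is annotated in GENCODE M21 and has no row in the table used here, so any reads it shares with S100a11 cannot be told apart.

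Anxa2, which forms a membrane-bound complex with S100A10 and assists plasmin formation at the cell surface, had a like pattern. Its PD1hi libraries were close together at 6311, 6621 and 6611 scaled counts in experiments 3, 5 and 6. Treg libraries held 2281 and 2109, then 1571, then 1668 and 1836 in the same order of experiments, and Tconv libraries held 1530, then 1949 and 2111, then 1597 and 1548. PD1hi lay above all other libraries, while Treg and Tconv overlapped. The log2 fold change was 1.94 ± 0.16 in PD1hi against Tconv and 1.84 ± 0.16 in PD1hi against Treg (limma adjusted p = 3.79e-06 and 7.18e-06). In Treg against Tconv it was 0.10 ± 0.16, with a 95% interval of -0.24 to 0.44 (limma adjusted p = 0.766). The antisense gene Gm16144 shares 98 of the 3731 exon bases of Anxa2 in GENCODE M21, and the strand setting of the counting is not given in the sources used here. Gm16144 had 0 to 37.4 scaled counts in PD1hi libraries, 0 to 21.6 in Treg libraries and 1.07 to 11.8 in Tconv libraries. In bulk samples, fewer cells of a type with the RNA and less RNA per cell cannot be told apart.

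S100a10, the partner of annexin A2 and an S100 protein that has lost calcium binding, did not follow Anxa2. Its PD1hi libraries held 4173, 5025 and 5368 scaled counts in experiments 3, 5 and 6. Treg libraries held 7534 and 9397, then 6348, then 6378 and 6591, and Tconv libraries held 4062, then 3929 and 4216, then 3767 and 3590. Treg libraries were above all others, and the PD1hi library of experiment 3 lay within the range of Tconv. S100a10 was higher in Treg than in Tconv by 0.84 ± 0.15 (limma adjusted p = 0.00217) and lower in PD1hi than in Treg, at -0.54 ± 0.15 (limma adjusted p = 0.0254). PD1hi against Tconv gave 0.30 ± 0.15 (95% interval -0.03 to 0.62, limma adjusted p = 0.172). The difference between PD1hi and Treg lost its call without PD1hi of experiment 3 (adjusted p = 0.089) or 5 (0.051), without Treg of experiment 3 (0.099), with libraries scaled to equal totals (0.0679), with only these 2 populations fitted (0.0642) or without a trend (0.0722).

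**Figure D1:**
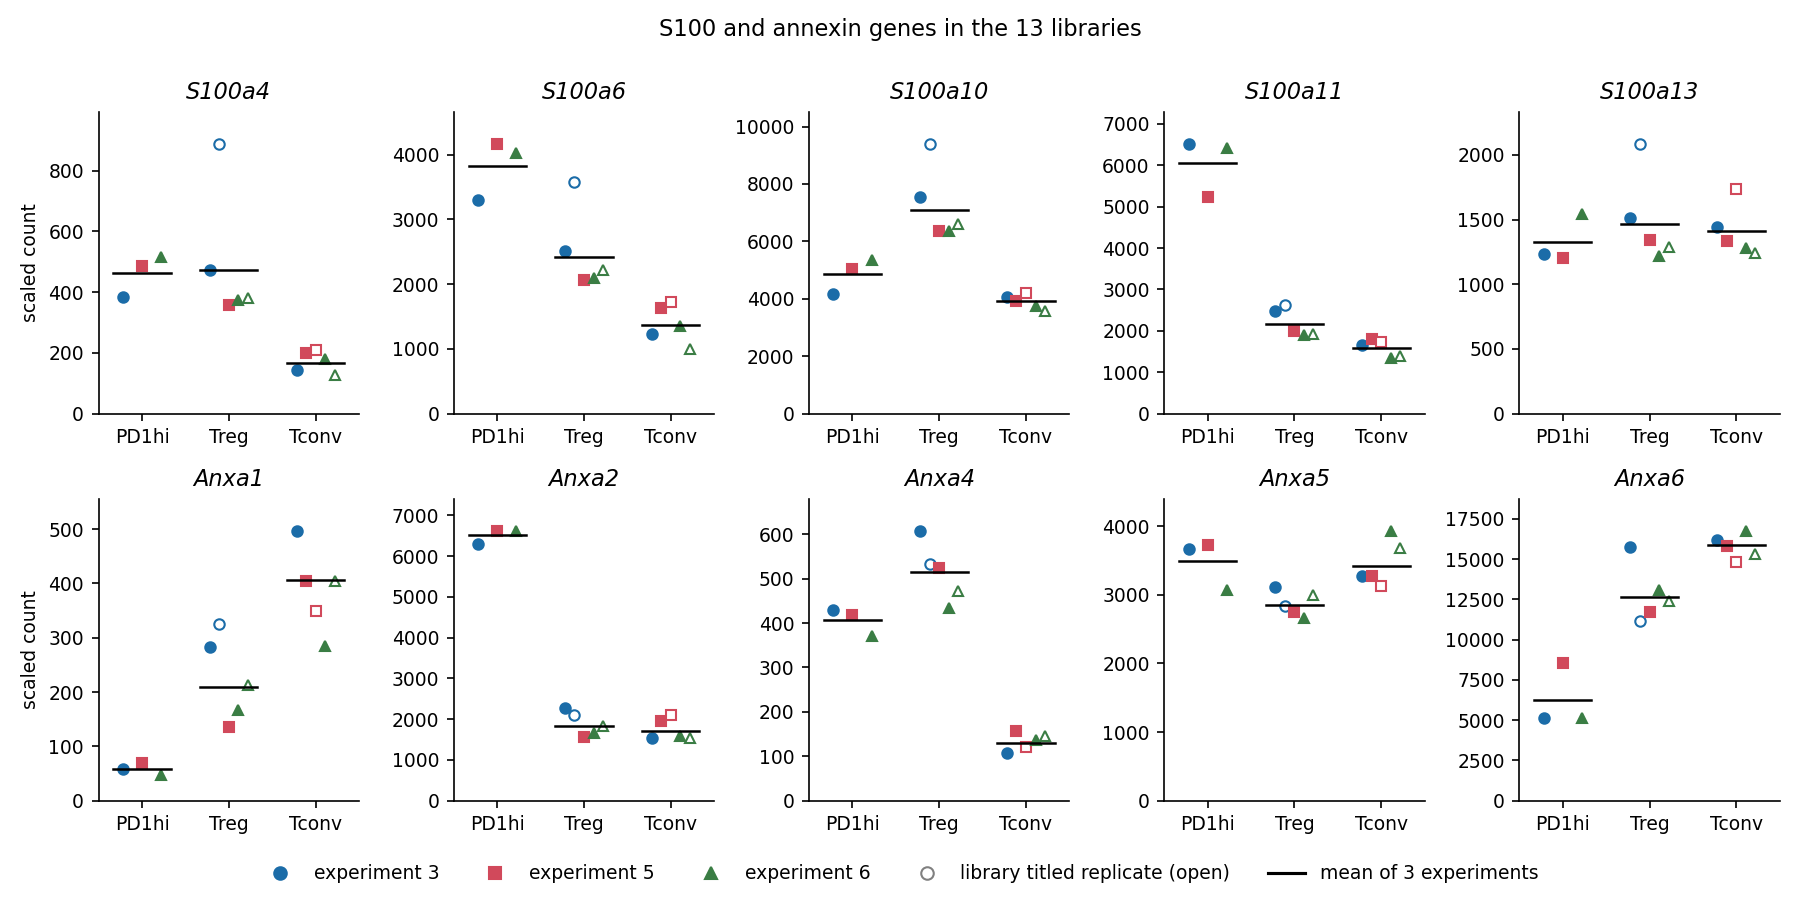
Scaled counts (linear axis from 0) of the 10 genes in each of the 13 libraries, by population (PD1hi, Treg, Tconv), with colour and shape for the experiment, open symbols for libraries titled replicate and a line at the mean of 3 experiments. S100a11 and Anxa2 lie above all other libraries in PD1hi, S100a10 in Treg, and S100a4 reaches 887.6 in the second Treg library of experiment 3.

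S100a4 and S100a6 rose in both PD1hi and Treg over Tconv. S100a4 binds nonmuscle myosin and is tied to cell motility, and S100a6, also called calcyclin, binds a ubiquitin ligase adaptor. Both lie on chromosome 3, as do all 5 of the S100 members and, of the 5 annexin members, Anxa5. S100a5 lies between S100a4 and S100a6 in the GRCm38 annotation.

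For S100a4, PD1hi libraries held 384.3, 487.0 and 515.3 scaled counts in experiments 3, 5 and 6. Treg libraries held 473.7 and 887.6, then 357.4, then 372.8 and 381.6, and Tconv libraries held 142.8, then 200.9 and 210.1, then 178.8 and 125.7. PD1hi and Treg overlapped and both lay above every Tconv library. The log2 fold change was 1.47 ± 0.26 in PD1hi against Tconv and 1.45 ± 0.26 in Treg against Tconv (limma adjusted p = 0.00134 and 0.00273). PD1hi against Treg gave 0.02 ± 0.26, with a 95% interval of -0.55 to 0.60 (limma adjusted p = 0.968). Without the second Treg library of experiment 3, which held the 887.6, the Treg change was 1.27 ± 0.21 (limma adjusted p = 0.0014). The transcript Gm42674 shares 302 of the 584 exon bases of S100a4 on the same strand in GENCODE M21 and has no row in the table used here, so reads of the pair cannot be told apart.

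For S100a6, PD1hi libraries held 3301, 4165 and 4025 scaled counts, Treg libraries 2516 and 3580, then 2061, then 2091 and 2212, and Tconv libraries 1225, then 1638 and 1727, then 1350 and 1002. The order was PD1hi, Treg and Tconv, although the second Treg library of experiment 3 overlapped the PD1hi libraries. S100a6 was higher in PD1hi than in Tconv by 1.5 ± 0.19 (limma adjusted p = 1e-04) and higher in Treg than in Tconv by 0.83 ± 0.19 (limma adjusted p = 0.0109). The Treg call was lost without Tconv of experiment 3 (0.0543) or 6 (0.0571). PD1hi exceeded Treg by 0.68 ± 0.19 (limma adjusted p = 0.0286), and within experiments 3, 5 and 6 by 0.12, 1.01 and 0.90 on the log2 scale. That call was lost without PD1hi of experiment 5 (adjusted p = 0.0942), Treg of experiment 5 (0.114) or 6 (0.11), or without a trend (0.0775), and was kept without the second Treg library of experiment 3 (0.77 ± 0.16, limma adjusted p = 0.00622).

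S100a13, whose product takes part in the unconventional release of Fgf1 and interleukin 1 alpha, did not pass in any comparison. Its scaled counts were 1207 to 1545 in PD1hi libraries, 1218 to 2086 in Treg libraries and 1242 to 1735 in Tconv libraries. The 3 populations overlapped, and the highest Treg value was again the second library of experiment 3. The 95% intervals of the log2 difference were -0.46 to 0.28 in PD1hi against Tconv, -0.50 to 0.24 in PD1hi against Treg and -0.33 to 0.41 in Treg against Tconv.

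Anxa1, which binds formyl peptide receptors once secreted and is known as a brake on inflammation, fell most among the members in PD1hi. Its PD1hi libraries held 58.4, 68.7 and 47.8 scaled counts in experiments 3, 5 and 6. Treg libraries held 282.7 and 325.0, then 136.4, then 167.6 and 212.3, and Tconv libraries held 496.6, then 404.8 and 348.7, then 284.2 and 404.5. PD1hi lay below all other libraries, and Treg and Tconv overlapped. The log2 fold change was -2.78 ± 0.30 in PD1hi against Tconv and -1.77 ± 0.30 in PD1hi against Treg (limma adjusted p = 3.24e-05 and 0.00141). In Treg against Tconv it was -1.01 ± 0.30 with a limma adjusted p of 0.0441, close to the threshold. That call was lost when the PD1hi or the Tconv value of experiment 3 was left out (adjusted p = 0.052 and 0.183), or the PD1hi, the Treg or the Tconv value of experiment 5 (0.0502, 0.176 and 0.0945), or the Treg or the Tconv value of experiment 6 (0.12 and 0.078). It was also lost with no filter on low values (0.0528), with equal totals (0.0578) and without a trend (0.0674). The formyl peptide receptor genes Fpr1 and Fpr2 were below the filter on low values.

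Anxa4, an annexin best known from the membranes of epithelial cells, was high in both PD1hi and Treg. Its PD1hi libraries held 429.4, 418.3 and 370.7 scaled counts, Treg libraries 607.6 and 532.7, then 523.8, then 434.6 and 473.2, and Tconv libraries 106.6, then 156.4 and 121.6, then 136.2 and 145.4. Treg libraries lay above the PD1hi libraries and both above Tconv, without overlap. Anxa4 was higher in Treg than in Tconv by 2.0 ± 0.19 and higher in PD1hi than in Tconv by 1.66 ± 0.19 (limma adjusted p = 2.47e-05 and 5.28e-05). Although the PD1hi and Treg libraries did not overlap, the difference of -0.34 ± 0.19 did not pass (95% interval -0.76 to 0.08, limma adjusted p = 0.281).

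Anxa6, an annexin with a duplicated core that recruits the Ras GTPase activator Rasa1 to membranes, ran the other way. Its PD1hi libraries held 5150, 8533 and 5107 scaled counts, Treg libraries 15760 and 11170, then 11700, then 13080 and 12410, and Tconv libraries 16220, then 15830 and 14830, then 16760 and 15340. The PD1hi libraries lay below all others, with that of experiment 5 nearest to them, and the first Treg library of experiment 3 reached the Tconv range. Anxa6 was lower in PD1hi than in Tconv, at -1.38 ± 0.18, and lower than in Treg, at -1.05 ± 0.18 (limma adjusted p = 0.000134 and 0.00148). Within experiments 3, 5 and 6, the PD1hi difference from Tconv was -1.65, -0.85 and -1.65. Treg against Tconv gave -0.33 ± 0.18 (95% interval -0.73 to 0.07, limma adjusted p = 0.298), and passed in a fit of only these 2 populations (adjusted p = 0.0499).

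Anxa5, the phosphatidylserine-binding annexin used as a stain of dying cells, did not pass in any comparison. Its scaled counts were 3076 to 3732 in PD1hi libraries, 2655 to 3114 in Treg libraries and 3121 to 3931 in Tconv libraries. PD1hi overlapped with both others, and every Treg library lay just below every Tconv library. The 95% intervals of the log2 difference were -0.26 to 0.31 in PD1hi against Tconv, 0.01 to 0.57 in PD1hi against Treg (limma adjusted p = 0.17) and -0.54 to 0.02 in Treg against Tconv (limma adjusted p = 0.242). These intervals are of single genes and are not adjusted. Without PD1hi of experiment 6 the difference from Treg passed, at 0.38 ± 0.12 (limma adjusted p = 0.0483).

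**Figure D2:**
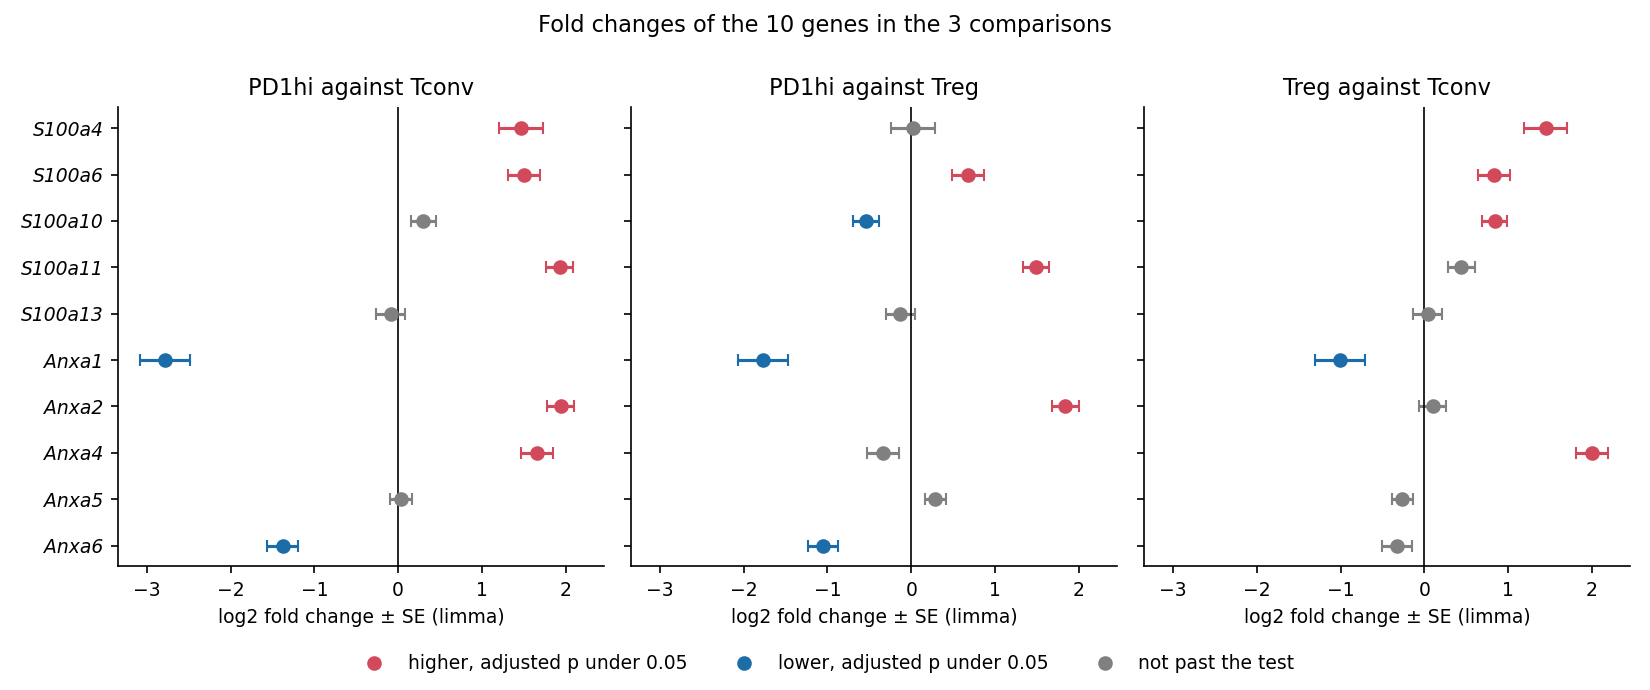
Log2 fold change with its standard error for the 10 genes (rows) in PD1hi against Tconv, PD1hi against Treg and Treg against Tconv, coloured by whether the limma adjusted p is under 0.05. S100a11 and Anxa2 are near 2 in PD1hi against Tconv and well above 0 against Treg, S100a4 and Anxa4 are near 0 or below it against Treg, and Anxa1 is below 0 in all 3 panels.

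Over all genes tested, 26.1% of 14177 passed in either direction in PD1hi against Tconv (14.2% higher and 11.9% lower), and of the members 5 were higher, 2 lower and 3 not past the test. With libraries scaled to equal totals, the higher share of all called genes was 65.5% instead of 54.4% with a shift of 0.144 in the log2 fold change of the median gene, and the member counts were again 5 and 2. In PD1hi against Treg 16.5% of all tested genes passed, 8.16% higher and 8.39% lower, and 3 members were higher and 3 lower. In Treg against Tconv 14.4% passed, 8.73% higher and 5.66% lower, and 4 members were higher and 1 lower. The median absolute log2 fold change of the members was 1.49, 0.61 and 0.63 in these comparisons, in the same order, beside 0.41, 0.32 and 0.29 over all tested genes. Members were chosen with earlier results of these data known, so setting them beside all genes is not a test of the families. Comparisons that share a population share its samples, so their counts are not separate results. The direction was the same in all 3 experiments for each member that passed, in each comparison. These members were picked by a test on the same values, so the shared direction adds no separate support.

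Levels of different genes were compared per kilobase of exon (union of GENCODE M21 exons), a length that may differ from that of the authors' annotation. Per kilobase, S100a11 was the most abundant of the 10 in PD1hi, at 11800 ± 1390 (SD, n = 3), followed by S100a10 at 4010 ± 508 and S100a6 at 2800 ± 339. In Treg the order was led by S100a10 at 5860 ± 978, then Anxa6 at 4310 ± 304 and S100a11 at 4220 ± 677, of which Anxa6 and S100a11 lay within their spread. In Tconv it was led by Anxa6 at 5420 ± 160, then S100a10 at 3250 ± 185 and S100a11 at 3120 ± 397, and these last also lay within their spread. At the low end, Anxa1 averaged 20 ± 3.58 in PD1hi cells, 72.2 ± 29.4 in Treg and 139 ± 27.6 in Tconv, and Anxa4 at 87.4 ± 6.71, 111 ± 12.6 and 27.7 ± 4.14 in the same populations. Anxa2, the binding partner of S100a10, averaged 1750 ± 47.2 in PD1hi cells, 493 ± 86.1 in Treg and 459 ± 74.2 in Tconv per kilobase.

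**Figure D3:**
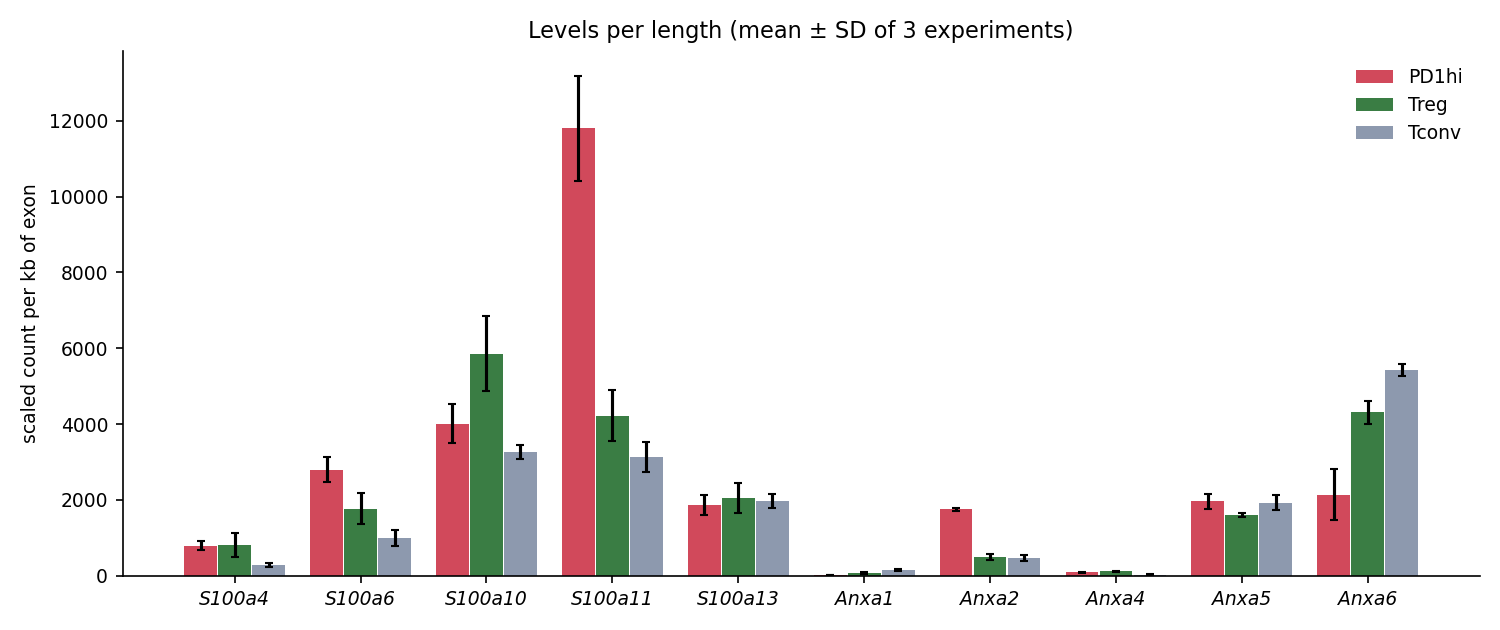
Mean scaled count per kilobase of exon (linear axis from 0) for the 10 genes in PD1hi, Treg and Tconv, with error bars of 1 SD over 3 experiments. S100a11 is at 11800 in PD1hi, S100a10 leads in Treg at 5860 and Anxa6 leads in Tconv at 5420.

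How like the patterns were was measured as the root mean square difference of log2 values over the 9 population and experiment means, each gene centred on its own mean. The most like pair of members was S100a11 and Anxa2, at 0.21. S100a13 and Anxa5, which both changed little, followed at 0.30, and then S100a4 and S100a6 at 0.32. The measure is small for any genes that change little, so the 0.30 does not show that S100a13 and Anxa5 moved together. In PD1hi of experiments 3, 5 and 6, S100a13 was at 1235, 1207 and 1545 and Anxa5 at 3663, 3732 and 3076. The known partners S100a10 and Anxa2 differed by 1.0, and S100a11 and Anxa1 by 1.99. The least like pair was Anxa1 and Anxa2, at 2.03.

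Among all other tested genes, the nearest to S100a11 were Stx6 (0.15) and Cd82 (0.16), and to Anxa2 Nsmaf (0.17) and Adck3 (0.19). Nearest to Anxa4 were Icos (0.17), the costimulatory receptor of activated T cells, and Ube2l6 (0.19). Anxa1 was nearest to Ada (0.20) and Tsc22d3 (0.31), and Anxa6 to Fam105a (0.16) and Cd47 (0.17). S100a6 was nearest to Lrrc8d (0.15) and Tlcd2 (0.17), and S100a10 to Ttc28 and Ncf4 (0.13 each). S100a4 had no neighbour as close: Mgmt was at 0.27 and the immunoglobulin light chain segment Igkv6-15 at 0.28. S100a13 and Anxa5, which changed little, were nearest to Gm8399 (0.07) and Gm12226 (0.09), and to Gtf2h3 (0.06) and Pkm2 (0.07).

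**Figure D4:**
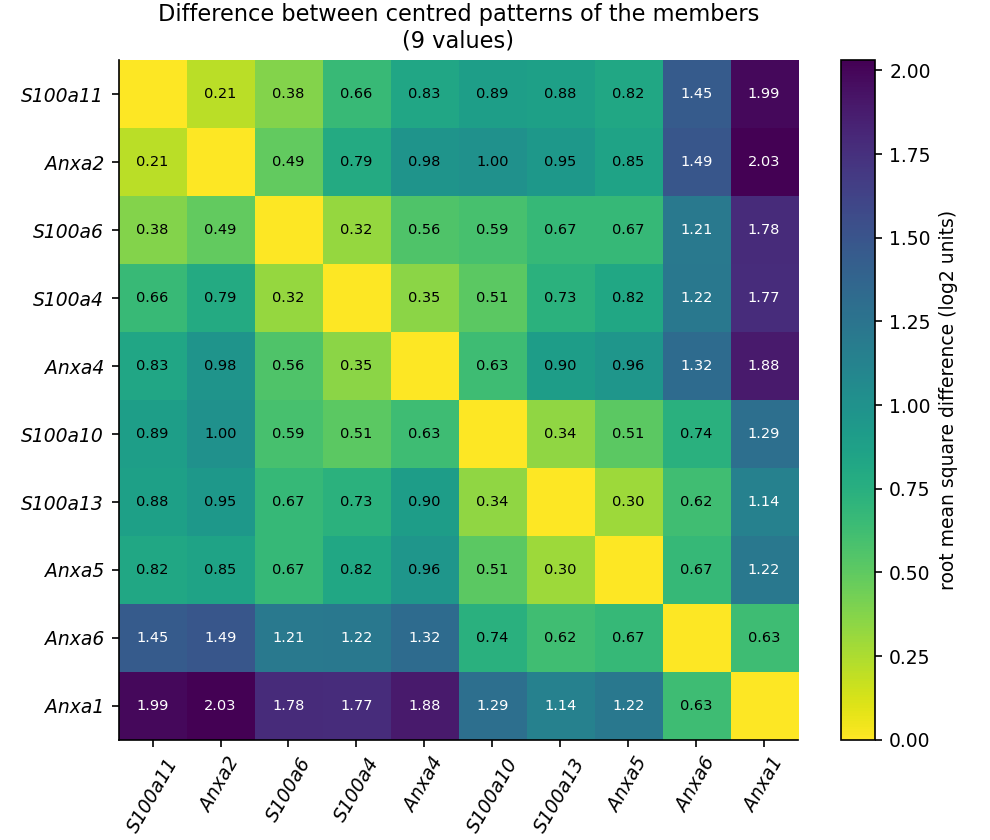
Root mean square difference (log2 units, colour scale from 0) between the centred patterns of each pair of the 10 genes over 9 values, with the value printed in each cell. S100a11 and Anxa2 differ least (0.21), and Anxa1 differs from Anxa2 by 2.03.

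The table holds 12 further symbols of the families, of which 9 passed the filter on low values, among them S100pbp, a binding protein of S100P and not an S100 protein. Anxa3, Anxa9 and S100a9 passed the filter only through a single population, so no test of them is given. The rest of these passed in no comparison. Anxa9 had means of 19.2 in PD1hi, 6.98 in Treg and 4.43 in Tconv, and S100a9 of 8.02, 28.8 and 8.99. Anxa3, an annexin abundant in neutrophils, held 549.3, 294.0 and 394.6 scaled counts in the PD1hi libraries of experiments 3, 5 and 6. Treg libraries held 1.87 to 22.6 and Tconv libraries 0 to 12.8. Every PD1hi library thus lay above all others, while Treg and Tconv overlapped. Anxa3 passed the filter only through PD1hi, its means being 9.67 in Treg and 5.63 in Tconv, so no test of it is given. There were 1190 reads in PD1hi, 59 in Treg and 20 in Tconv. Per summed size factor, PD1hi held 38-fold the reads of Treg (exact 95% counting interval 29.2 to 50.2) and 101-fold those of Tconv (65.1 to 166), and these intervals cover counting error only. Of the other neutrophil genes of the families, S100a8 was at 0 to 36.9 and S100a9 at 0 to 15.4 in PD1hi libraries, and PD1hi of experiment 5, with 294.0 of Anxa3, held no read of either. Whether other cells have a part in the Anxa3 values was not tested.

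S100a5, which lies between S100a4 and S100a6, was below the filter and was not tested. It had 31, 17 and 15 reads in the PD1hi libraries of experiments 3, 5 and 6, no read in any Treg library and 2 reads in Tconv, both in 1 library of experiment 5. Reads per summed size factor were at least 39.5-fold higher in PD1hi than in Treg, taking 3 reads in all Treg libraries together as the floor. They were 53.5-fold higher than in Tconv (exact 95% counting interval 14.2 to 451). These bounds cover counting error only.

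S100a8 and S100a9, the alarmins of neutrophils, were highest in the libraries of experiment 3 and passed in no comparison. S100a8 was at 118.0 and 176.3 scaled counts in the Treg libraries of experiment 3, against 0 to 19.7 in the other Treg libraries. In experiment 3 it was at 36.9 in PD1hi and 38.4 in Tconv. Both Treg libraries of experiment 3 also lay above the other 3 Treg libraries for 8 of the 10 members, all but Anxa5 and Anxa6, as they did for 13.4% of the 14177 tested genes, and the part of myeloid cells in this was not tested. Without the Treg value of experiment 3, the log2 fold change in Treg against Tconv was 1.15 ± 0.23 for S100a4, 0.65 ± 0.19 for S100a6 and 0.71 ± 0.15 for S100a10 (limma adjusted p = 0.00938, 0.0475 and 0.00985). It was 1.92 ± 0.22 for Anxa4 and -1.31 ± 0.28 for Anxa1 (limma adjusted p = 3e-04 and 0.0134).

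**Figure D5:**
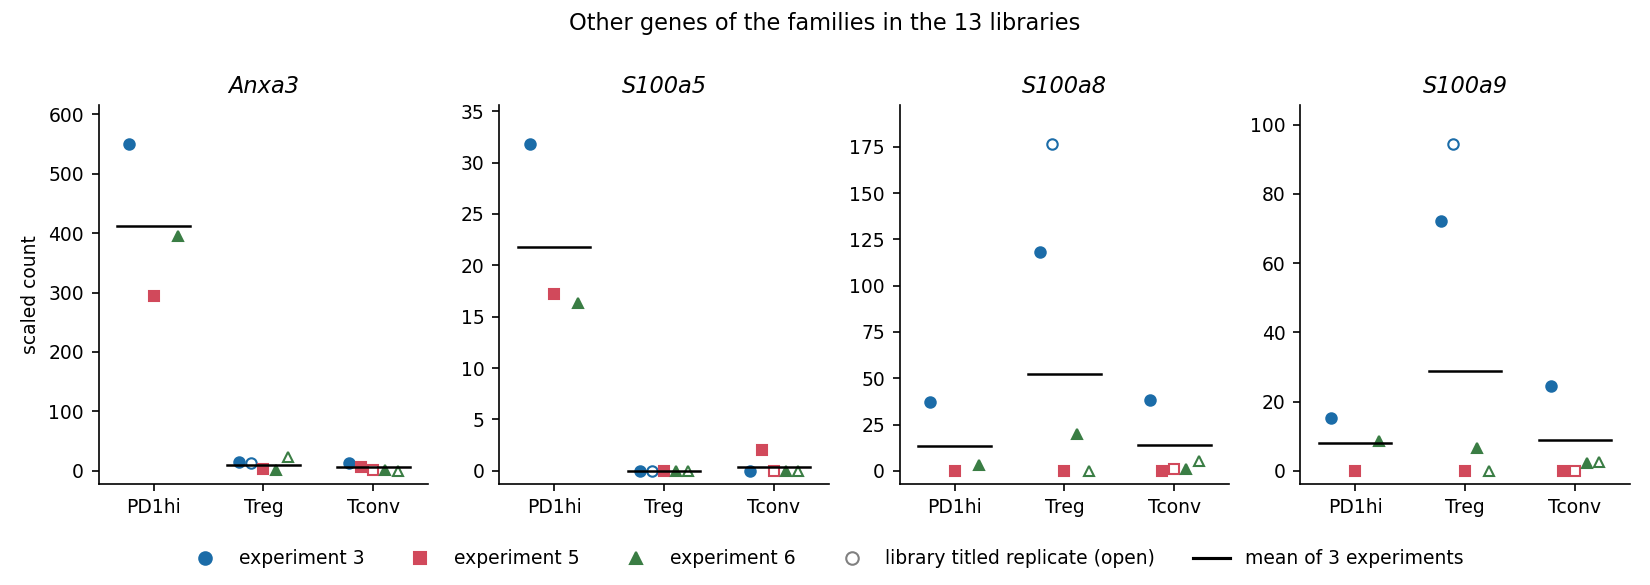
Scaled counts (linear axes) of Anxa3, S100a5, S100a8 and S100a9 in each library by population, with colour and shape for the experiment and a line at the mean of 3 experiments. Anxa3 and S100a5 are high in the 3 PD1hi libraries, and S100a8 and S100a9 are highest in the Treg libraries of experiment 3.

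Further lists place the members among related genes, and their counts stand beside the shares of all genes given above. Of 30 partners and receptors of S100 proteins and annexins, 14 were tested. In PD1hi against Tconv 1 rose and 3 fell: Plaur, the urokinase receptor, at -4.58 ± 0.43, Plat, tissue plasminogen activator, at -3.83 ± 0.73, and Sugt1, a chaperone partner, at -0.67 ± 0.17, while Rasa1 was at 0.78 ± 0.15. In PD1hi against Treg 3 fell and none rose, namely Plat (-2.83 ± 0.73), Plaur (-2.41 ± 0.43) and the protease Capn2 (-0.84 ± 0.17). In Treg against Tconv Ahnak, the scaffold of the S100A10 and annexin A2 complex, rose by 0.89 ± 0.16, and Plaur (-2.17 ± 0.43) and Sugt1 (-0.58 ± 0.17) fell. The median log2 fold change of the list was -0.17, -0.12 and 0.05 in the 3 comparisons.

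Genes of antigen-experienced T cells went both ways. Of 20 tested in PD1hi against Tconv, 6 rose and 7 fell, with the surface antigen Ly6c2 at -2.45 ± 0.27, the adhesion receptor Cd44 at 1.35 ± 0.12 and the death ligand Fasl at -1.22 ± 0.24 (median of the list 0.24). In PD1hi against Treg 7 rose and 6 fell, led by the repressor Prdm1 at -2.25 ± 0.26, the integrin Itgb1 at 1.60 ± 0.14 and the helix-loop-helix factor Id2 at 1.49 ± 0.15 (median 0.25). In Treg against Tconv 5 rose and 5 fell, led by Id2 at -2.24 ± 0.15, Ly6c2 at -2.17 ± 0.27 and Fasl at -2.16 ± 0.24 (median -0.19). Among other EF-hand calcium sensors, as over all tested genes (26.1%, 16.5% and 14.4% called in the 3 comparisons), most did not pass. Of 16 tested, 3 rose and none fell in PD1hi against Tconv, namely Efhd2 (1.11 ± 0.26), calmodulin gene Calm3 (0.89 ± 0.19) and Stim2 (0.50 ± 0.16), a calcium sensor of the endoplasmic reticulum. In PD1hi against Treg 2 rose and 2 fell, led by Swap70 (-3.09 ± 0.16), Rcn1 (-1.82 ± 0.25) and Efhd2 (1.02 ± 0.26), and in Treg against Tconv 3 rose and 1 fell, led by Swap70 (3.33 ± 0.16), Rcn1 (1.75 ± 0.25) and Stim2 (0.74 ± 0.16).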

How the data were processed

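RNA was measured in 13 libraries of 3 sorted populations. Per the labels' protocols, total RNA was ribosome-depleted and sequenced on Ion Torrent. Tools named in the submitters' processing notes are HTSeq 0.5.4, Picard and limma, and builds mm9, hg19 and GRCh37; no aligner or strand setting is stated there. Deposited by the authors was 1 table of scaled signal, read counts scaled by size factors, with 1 added. The 1 was subtracted, after which every value was a whole number of reads times a library constant (within 0.001 reads). Libraries of 1 experiment and population were averaged to 9 values. Genes with a mean of at least 10 were tested with limma 3.58.1 (R 4.3.3) on log2(scaled count + 1), with a trend, 2-sided, over all 14177 genes and 1 spread for all populations, with Benjamini-Hochberg adjustment and a threshold of 0.05. Single deviating libraries were sought with Dixon's ratio. The fit was run on simulated counts with the same spread setting for all genes and no experiment effect. That simulation does not show how the fit behaves under the spread of these data. The members and lists were chosen with earlier results of these data known. The named genes were the 10 members, other S100 and annexin symbols, the 3 largest called changes of each list and the 2 nearest patterns of each member. Experiment numbers in the titles pair the values; within experiments, deviations from population means correlated by -0.07 to 0.298. Alternatives were other pseudocounts, filters, scalings, spread estimates, library choices, an experiment block and leaving out each value. Gene lengths, overlaps and promoters came from GENCODE M21 and RefSeq on GRCm38, a later build than mm9.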

Additional observations from a re-analysis of the deposited data

Results flagged for a closer look

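S100a4 in the second Treg library of experiment 3 was at 887.6 scaled counts, far from the other 4 Treg libraries, of which the nearest held 473.7. Of 20 gene and population groups of 5 libraries examined, this was the only one in which a library stood apart, and chance gives about 1 in 20. The same library held the highest Treg value of 5 other members, S100a6 (3580), S100a10 (9397), S100a11 (2633), S100a13 (2086) and Anxa1 (325.0).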

How the results depend on the processing

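Across 23 alternatives (9 of them leaving out 1 of the 9 values), 648 single-gene values kept their direction and side of the threshold, 22 lost a call, 3 gained one and 17 changed sign. The 7 calls in PD1hi against Tconv and those of S100a11, Anxa2, Anxa1 and Anxa6 in PD1hi against Treg and of S100a4, S100a10 and Anxa4 in Treg against Tconv held in each. With the experiment as a replicate block the member counts in the 3 comparisons were 5 higher and 2 lower, 3 and 3, and 4 and 1, and no member call changed. The count of members lower in Treg than in Tconv, 1 as reported, was 0 with no filter on low values, with equal totals and with no trend, 2 with only the 2 populations compared, and 0 to 1 when 1 value was left out. The count of all tested genes lower in Treg than in Tconv ran from 494 to 1123 when 1 value was left out. Sign changes were of values near 0. S100a13 was at 0.05 in PD1hi against Tconv with equal totals, and at -0.04 in Treg against Tconv without the second Treg library of experiment 3, with or without the PD1hi library of experiment 6. Anxa5 was at 0.00 in PD1hi against Tconv without the libraries titled replicate, and S100a4 at -0.05 in PD1hi against Treg with voom weights. With 1 value left out, the range was -0.02 to 0.12 for Anxa5 in PD1hi against Tconv, -0.14 to 0.32 for S100a4 and -0.25 to 0.02 for S100a13 in PD1hi against Treg, and -0.12 to 0.14 for S100a13 and -0.03 to 0.23 for Anxa2 in Treg against Tconv. The cause was not tested.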
